A study of Drosophila melanogaster with 6 samples.

Results

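The 4 metallothionein genes MtnA, MtnB, MtnC and MtnD of Drosophila melanogaster were followed across 6 single-colour Affymetrix arrays of whole adult flies. Members were the probe sets whose platform annotation names 1 of these genes, and each gene had 1 such probe set, so 4 of 11982 genes on the array were described. MtnE and MtnF, 2 further fly metallothionein genes, had no probe set of that name in the annotation and were not analysed here. Flies of 3 genotypes were compared. One, gyc76c[KG03723], carries a mutation in Gyc76C, which encodes a receptor-type guanylate cyclase. Another, spz[rm7], carries a mutation in spz, whose product Spätzle activates the Toll receptor. The labels call gyc76c[revert] the control. They are written KG03723, rm7 and revert. Adults of each genotype were injected with Staphylococcus saprophyticus, a Gram-positive bacterium, or with phosphate-buffered saline (PBS), and total RNA was taken 12 hours later. Each of the 6 combinations was measured on 1 array, so no group has a replicate. The labels give no sex, exact age or number of flies per array, and they do not say whether the 3 genotypes share a genetic background.

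Metallothioneins are very small, cysteine-rich proteins that bind copper, zinc and cadmium through their sulphur atoms. In the fly they buffer dietary and toxic metal, above all in the midgut, and their transcription is switched on by metal-responsive transcription factor 1, the product of MTF-1, which binds short metal response elements in their promoters. MtnA is the member most closely tied to copper and MtnB the one most closely tied to cadmium, while MtnC and MtnD are regarded as minor members of the family. All 4 genes lie on chromosome arm 3R. In RefSeq (assembly Release 6) MtnD lies next to MtnE, with 0 genes between them, and 2 genes lie between MtnE and MtnB. The gene spz also lies on 3R, and Gyc76C and MTF-1 lie on 3L.

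All 4 members were far above the floor of 42.7 on all 6 arrays. This floor is the 40th percentile of all signals, and lower signals were raised to it before the log2 was taken. The authors' MAS5 signals have 1 value per probe set and array on a linear scale, and each array has a 2% trimmed mean of 500.01. A signal is compared here only with the same probe set on another array. The brightest probe set of an array read between 30455 and 41453. Genes typical of testis, eggshell, muscle, midgut and fat body were all present on every array, as the label of whole bodies implies. The 8 testis genes summed to between 4464 and 8674 and the 6 eggshell genes to between 14162 and 74107.

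MtnD set rm7 apart from the other genotypes. It read 709 after bacteria and 407 after PBS in rm7 flies, 5548 after bacteria and 5275 after PBS in KG03723 flies, and 6693 after bacteria and 4423 after PBS in revert flies. Both rm7 arrays lay far below the 4 other arrays. The lower of those 4, revert after PBS, was 2.64 above the higher rm7 array on the log2 scale. The highest array of MtnD was 16.4-fold above the lowest, the widest range of the 4 genes.

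MtnC was highest in revert and lower in both mutants. It read 3539 after bacteria and 1963 after PBS in rm7 flies, 4105 and 4130 after the same injections in KG03723 flies, and 9510 and 8695 in revert flies. Both revert arrays were above all 4 mutant arrays. The gap between the lower revert array and the highest mutant array was 1.07 on the log2 scale. The KG03723 arrays and the rm7 bacteria array lay closer to one another than 0.284. This is the SD of a difference of 2 arrays for this gene in the limma fit below, which draws partly on other genes. The rm7 PBS array lay 0.85 below the rm7 bacteria array.

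MtnA, the copper-linked member, varied least. Its signal was 18718 after bacteria and 16956 after PBS in KG03723 flies. It was 23382 and 15067 in rm7 flies, and 26568 and 22142 in revert flies. The genotypes overlapped, since the rm7 bacteria array lay above the revert PBS array and the rm7 PBS array was the lowest of all. These signals were between 44.4% and 72.7% of the highest signal on their array, and compression of such bright signals was not tested.

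MtnB, the cadmium-linked member, was lowest in KG03723. It read 884 after bacteria and 995 after PBS in KG03723 flies, 2004 and 1576 in rm7 flies, and 2023 and 1268 in revert flies. Both KG03723 arrays lay below the other 4 arrays. The rm7 and revert arrays overlapped, with both bacteria arrays at nearly the same level.

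**Figure D1:**
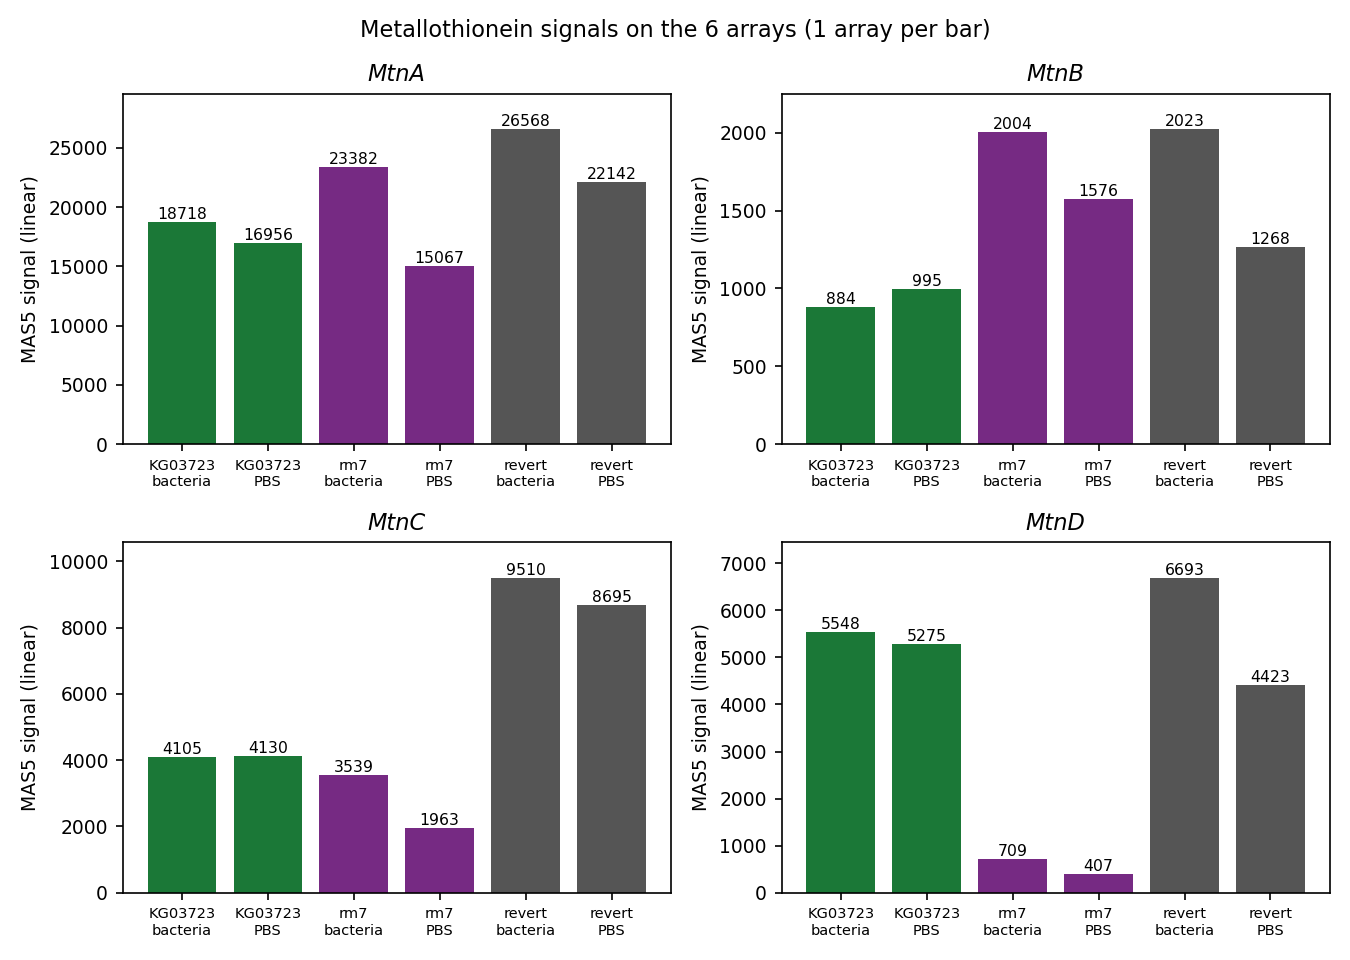
Linear MAS5 signal (vertical axis, from 0) of each metallothionein gene on the 6 arrays, 1 bar per array, with mutant genotypes left of revert and bacteria left of PBS; no error bars can be drawn with 1 array per group. MtnD stands at 709 and 407 in rm7 against 4423 or more elsewhere, and MtnC stands at 4130 or less in both mutants against 8695 or more in revert.

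The spz mutant was compared with gyc76c[revert] over both injections. The labels do not say that this control shares the background of spz[rm7]. The spz mutation and a difference in background therefore cannot be told apart here. MtnD and MtnC were lower in rm7 than in revert, MtnD 10.1-fold and MtnC 3.45-fold. In an additive limma fit of genotype and injection over the 6 arrays, the log2 difference of rm7 minus revert was -3.34 ± 0.18 for MtnD (SE, 95% interval -3.76 to -2.92, limma adjusted p = 0.000361). For MtnC it was -1.79 ± 0.20 (SE, 95% interval -2.26 to -1.31, limma adjusted p = 0.00432). MtnD had the 14th lowest of 9540 fitted differences and the 8th smallest p. The error in this fit starts from each gene's departure from additivity, with 2 residual degrees of freedom. It was combined in limma with a spread estimated over all genes, weighted as 4.81 prior degrees of freedom. These SEs and p-values therefore do not measure spread between flies of a group.

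Both genes were lower after each injection. MtnD was 9.45-fold lower in rm7 after bacteria and 10.9-fold lower after PBS. MtnC was 2.69-fold lower after bacteria and 4.43-fold lower after PBS. Across all 10105 genes above the floor on at least 1 array, 2.87% were at least 2-fold lower in rm7 after bacteria and 4.16% after PBS, where 2 of the 4 members were so each time. In the fit, 3% of the 9540 genes tested passed as lower in rm7 and 2.61% as higher. Of the members, 2 of 4 passed as lower and 0 as higher.

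The other pair of genes did not pass in rm7. MtnA had a log2 difference of -0.37 ± 0.14 (SE, 95% interval -0.70 to -0.04, limma adjusted p = 0.232), with the rm7 array lower after both injections. MtnB had one of 0.15 ± 0.20 (SE, 95% interval -0.32 to 0.62, limma adjusted p = 0.82). The median log2 difference of the 4 members was -1.08, against 0.03 over all genes tested.

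Tissue markers also differed between rm7 and revert. Of 10 listed midgut genes, 8 were measured, and their summed signal was 109418 after bacteria and 95188 after PBS in rm7 flies, against 135229 and 122678 in revert flies, with 3 of 8 lower in the limma fit. Their fitted log2 differences ran from -0.875 to 0.241, with a median of -0.30. The 5 muscle genes summed to 11315 and 7817 in rm7 flies, against 15077 and 15256 in revert flies, with 2 of 5 lower. The 6 eggshell genes summed to 14162 and 44353 in rm7 flies, against 59557 and 61499 in revert flies, with 2 of 6 lower. The 5 fat body genes summed to 31855 and 31374 in rm7 flies, against 18488 and 30021 in revert flies, and the 8 testis genes to 7986 and 5455 in rm7 flies, against 4464 and 8674 in revert flies, with 0 of 5 and 0 of 8 passing the limma test. Of genes typical of copper cells, tubule and photoreceptors, 2, 1 and 2 were measured, with 0 passing in rm7. The copper cell genes Vha100-4 and Ptx1 had log2 differences of -0.58 and 0.17. The tubule gene had one of 0.03, and the photoreceptor genes had 0.20 and 0.575. None of these measured markers was under the floor on all arrays. Their part in the metallothionein difference was not tested, and in whole-body RNA fewer cells of a type and less RNA per cell cannot be told apart. Signal ratios of 3' to 5' probe sets of the actin control were 2.81 and 2.31 on the rm7 bacteria and PBS arrays, against 2.29 and 2.44 on the revert arrays. For the GAPDH control they were 2.68 and 2.2 in rm7, against 1.99 and 2.12 in revert, and for the eIF4a control 6.61 and 6.34 in rm7, against 5.66 and 5.95 in revert. The part of RNA quality in these differences was not tested.

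The gyc76c mutant was compared with the same 2 revert arrays. No member passed the test in KG03723, where 0.692% of the 9540 genes passed as lower and 0.681% as higher. MtnC came closest, with a log2 difference of -1.14 ± 0.20 (SE, 95% interval -1.62 to -0.67, limma adjusted p = 0.0564). It was 2.32-fold lower in KG03723 than in revert after bacteria and 2.11-fold lower after PBS. Its adjusted p lay between 2.45e-06 and 0.254 over the 14 other settings tried. In limma fits without one array it was 0.000876 without the revert PBS array, 2.45e-06 without the revert bacteria array, 0.0281 without the rm7 PBS array and 0.0234 without the rm7 bacteria array, but 0.0514 without the KG03723 PBS array and 0.194 without the KG03723 bacteria array. In both fits without a revert array the prior degrees of freedom were infinite, so the spread came from other genes alone.

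MtnB had a log2 difference of -0.77 ± 0.20 in KG03723 (SE, 95% interval -1.24 to -0.30, limma adjusted p = 0.185). It was 2.29-fold lower than in revert after bacteria and 1.27-fold lower after PBS. With each array left out, its log2 difference ran from -1.11 to -0.43. MtnA had a log2 difference of -0.45 ± 0.14 (SE, 95% interval -0.78 to -0.11, limma adjusted p = 0.329) and was lower on both KG03723 arrays.

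MtnD, the gene with the widest difference in rm7, had a log2 difference of -0.01 ± 0.18 in KG03723 (SE, 95% interval -0.42 to 0.41, limma adjusted p = 0.996). Its 2 ratios pointed opposite ways, with KG03723 1.21-fold lower after bacteria and 1.19-fold higher after PBS. Of the 4 members, 2 were at least 2-fold lower after bacteria, where 1.24% of all genes were, and 1 of 4 after PBS, where 1.33% were. The 8 measured midgut genes summed to 109783 after bacteria and 110260 after PBS in KG03723 flies, against 135229 and 122678 in revert flies, with 2 of 8 lower in the limma fit. These 8 genes did not move together: their fitted log2 differences ran from -1.1 to 0.605, with a median of 0.01. The 5 muscle genes summed to 11565 and 11837 in KG03723 flies, against 15077 and 15256 in revert flies, and the 5 fat body genes to 22224 and 40071 in KG03723 flies, against 18488 and 30021 in revert flies, with 0 of 5 passing in each list. The 3'/5' ratio was 2.34 and 2.41 in KG03723, against 1.99 and 2.12 in revert, for GAPDH, 6.44 and 6.06, against 5.66 and 5.95, for eIF4a, and 2.51 and 2.37, against 2.29 and 2.44, for actin. The part of these markers and ratios in the metallothionein values was not tested.

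The 2 mutants were also compared with each other. MtnD was 10.1-fold higher in KG03723 than in rm7, with a log2 difference of 3.33 ± 0.18 (SE, 95% interval 2.92 to 3.75, limma adjusted p = 0.000332). MtnB was lower in KG03723 than in rm7 by 1.9-fold, with a log2 difference of -0.92 ± 0.20 (SE, 95% interval -1.39 to -0.45, limma adjusted p = 0.0434). The mutants thus stood in opposite order for these genes. In this contrast 3.43% of genes passed as higher and 2.68% as lower, against 1 of 4 members each way. In comparisons of 2 arrays, MtnD was 7.83-fold higher in KG03723 than in rm7 after bacteria and 12.9-fold higher after PBS. After bacteria 1 member was at least 2-fold higher and 1 lower, beside 2.92% and 3.65% of all genes, and after PBS 2 members were at least 2-fold higher, beside 4.25% of all genes.

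The MtnB call was lost in several fits. Its limma adjusted p was 0.184 without the rm7 PBS array, 0.195 without the rm7 bacteria array and 0.255 without the KG03723 bacteria array, and its range over 14 settings was 6.81e-05 to 0.255. The lowest of these came from a fit without the revert PBS array, where the spread came from other genes alone. The log2 difference of MtnB was -0.58 without the KG03723 bacteria array. MtnC had a log2 difference of 0.64 ± 0.20 (SE, 95% interval 0.17 to 1.12, limma adjusted p = 0.14). The estimate for MtnC stayed at 0.64 without either revert array. It was 1.04 without the rm7 bacteria array and 0.25 without the rm7 PBS array. Without the KG03723 bacteria array and the KG03723 PBS array it was 0.89 and 0.39. MtnA had a log2 difference of -0.08 ± 0.14 (SE, 95% interval -0.41 to 0.26, limma adjusted p = 0.86).

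**Figure D2:**
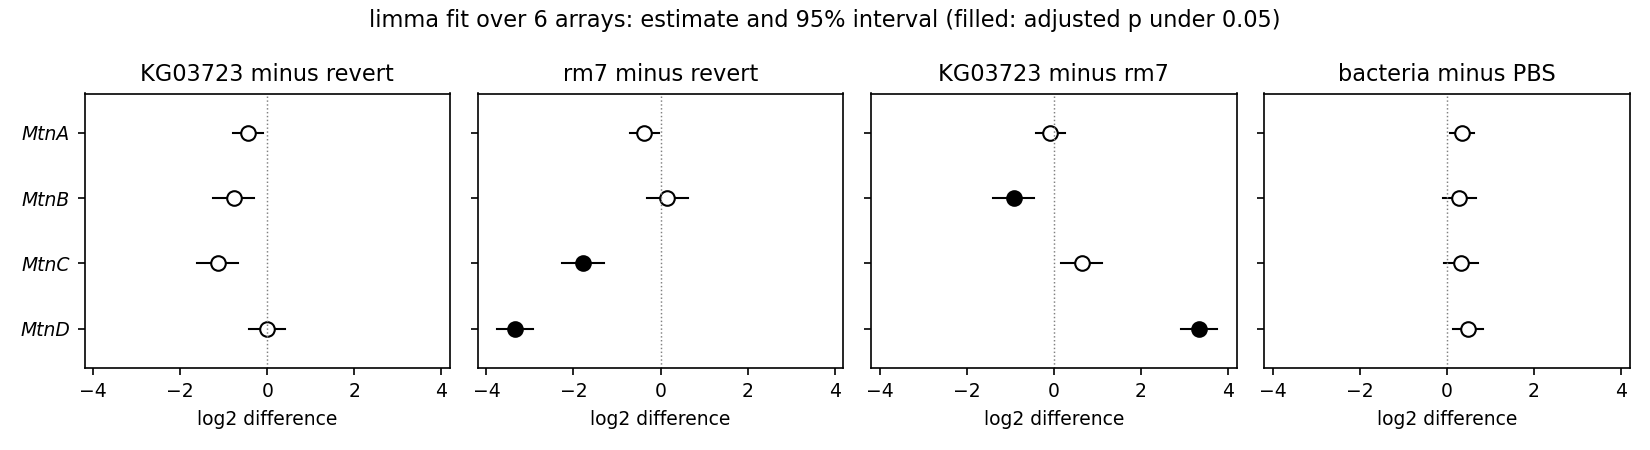
Log2 differences of the 4 metallothionein genes from the limma fit over 6 arrays, 1 panel per contrast; points are estimates, bars are 95% intervals, and filled points have an adjusted p under 0.05. In rm7 minus revert MtnD stands at -3.34 and MtnC at -1.79, and in KG03723 minus rm7 MtnD stands at 3.33 and MtnB at -0.92; no point is filled for KG03723 minus revert or for bacteria minus PBS.

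The response to the bacterium was small for all 4 genes. No member reached 2-fold in any genotype. In KG03723 the ratios of bacteria over PBS were close to 1, at 1.1 for MtnA, 1.05 for MtnD, 0.994 for MtnC and 0.889 for MtnB. In rm7 the 4 ratios were all above 1, at 1.8 for MtnC, 1.74 for MtnD, 1.55 for MtnA and 1.27 for MtnB. For MtnD the higher of the rm7 levels, 709 after bacteria, was still below both revert levels. In revert, MtnB was 1.6-fold and MtnD 1.51-fold higher after bacteria than after PBS, MtnA was 1.2-fold higher and MtnC 1.09-fold higher.

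The median log2 ratio of the 4 members was 0.03 in KG03723, 0.72 in rm7 and 0.43 in revert, against medians over all genes of 0.01, 0 and 0. For each member the KG03723 ratio was the lowest of the 3 genotypes, except that with quantile normalization MtnA had a log2 ratio of 0.0384 in KG03723 and 0.0322 in revert. The response of MtnB in KG03723 was lower than in revert by 0.84 on the log2 scale, and that of MtnC in KG03723 lower than in rm7 by 0.86. With 1 array per group, differences between responses could not be tested. Between the same arrays, the 6 eggshell genes summed to 14162 after bacteria against 44353 after PBS in rm7 flies, with 4 of 6 at least 2-fold lower, and the actin, GAPDH and eIF4a 3'/5' ratios were 2.81, 2.68 and 6.61 after bacteria against 2.31, 2.2 and 6.34 after PBS. In revert flies the 8 testis genes summed to 4464 after bacteria against 8674 after PBS. The 5 fat body genes summed to 22224 after bacteria against 40071 after PBS in KG03723 flies. The same genes summed to 31855 against 31374 in rm7 flies, and to 18488 against 30021 in revert flies. In rm7 flies the 5 muscle genes summed to 11315 after bacteria against 7817 after PBS, with a median log2 ratio of 0.58. Their 8 testis genes summed to 7986 against 5455 (median 0.57), and their 8 midgut genes to 109418 against 95188 (median 0.22). In KG03723 and revert flies the medians were -0.105 and -0.05 for muscle, -0.05 and -0.99 for testis, and -0.17 and 0.11 for midgut. In KG03723 flies the 6 eggshell genes summed to 74107 after bacteria against 61936 after PBS, with 2 of 6 at least 2-fold higher. The part of these markers and 3'/5' ratios in the metallothionein ratios was not tested.

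The shared effect of the bacterium was estimated over the 3 genotypes in the same fit. The log2 difference of bacteria minus PBS was 0.49 ± 0.14 for MtnD (SE, 95% interval 0.15 to 0.83) and 0.35 ± 0.12 for MtnA (SE, 95% interval 0.07 to 0.62). It was 0.32 ± 0.16 for MtnC (SE, 95% interval -0.07 to 0.71) and 0.28 ± 0.16 for MtnB (SE, 95% interval -0.10 to 0.67). Counted from the lowest of the 9540 fitted differences, the ranks were 9444 for MtnD, 9329 for MtnA, 9283 for MtnC and 9182 for MtnB. Without either rm7 array the estimate for MtnC was 0.06 and that for MtnA 0.20, and without either revert array that for MtnB was 0.09. The limma adjusted p was 1 for each member. At this threshold 0% of the 9540 genes passed in either direction, and 347 had an unadjusted limma p under 0.05. Over the members the unadjusted limma p was 0.0114 for MtnD, 0.0199 for MtnA, 0.0897 for MtnC and 0.123 for MtnB. In comparisons of 2 arrays, 0.475% of genes in KG03723, 0.623% in rm7 and 0.584% in revert were at least 2-fold higher after bacteria, and 0.861%, 0.327% and 3.42% were at least 2-fold lower, with 0 members in either direction.

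**Figure D3:**
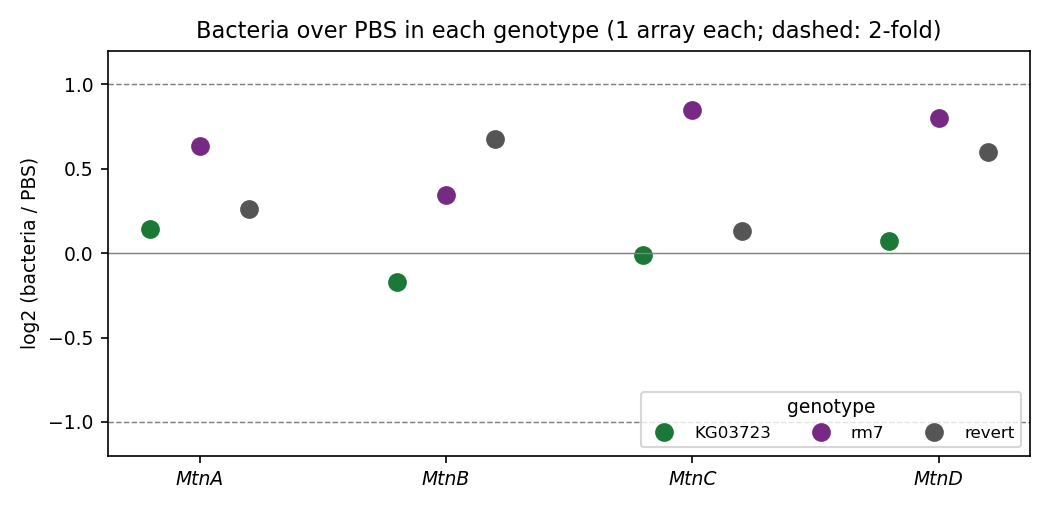
Log2 ratio of bacteria over PBS (vertical axis) for each metallothionein gene in KG03723, rm7 and revert flies; each point is the ratio of 2 single arrays and dashed lines mark 2-fold. All points lie between the dashed lines, and within each gene the KG03723 point is the lowest in the signals as deposited (with quantile normalization MtnA is not), from -0.17 for MtnB to 0.14 for MtnA.

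Other genes of metal handling were read from 3 lists. Of 32 listed genes 29 were on the array and 26 were tested in the fit. MTF-1, the regulator of the metallothioneins, read 706 after bacteria and 818 after PBS in rm7 flies, 544 and 803 in KG03723 flies, and 658 and 662 in revert flies. Its log2 difference was 0.20 ± 0.18 for rm7 minus revert (SE, limma adjusted p = 0.682) and 0.002 ± 0.18 for KG03723 minus revert (SE, limma adjusted p = 0.999). Neither difference passed the test.

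None of the copper genes tested passed in either mutant. The copper importer gene Ctr1A read 554 after bacteria and 652 after PBS in rm7 flies, 629 and 635 in KG03723 flies, and 537 and 714 in revert flies. ATP7, which encodes a copper-exporting ATPase, read 149 and 195 in rm7 flies, 185 and 198 in KG03723 flies, and 181 and 177 in revert flies. The importer gene Ctr1B was above the floor on 1 array, rm7 after bacteria, at 52.2, and was not tested. With 3% and 0.692% of all genes passing as lower in rm7 and KG03723, and 2.61% and 0.681% as higher, a list of 8 genes with 0 passing is near the background. Their fitted differences of rm7 minus revert ran from -0.27 to 0.29.

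Among zinc transporter genes, 15 of 17 were tested. ZnT41F, of the ZnT family of zinc transporters, read 189 after bacteria and 129 after PBS in rm7 flies, 345 and 332 in KG03723 flies, and 424 and 294 in revert flies. It was lower in rm7 than in revert, with a log2 difference of -1.17 ± 0.23 (SE, limma adjusted p = 0.0358). ZnT41F was higher in KG03723 than in rm7 (1.11 ± 0.23, SE, limma adjusted p = 0.04). Zip99C, of the ZIP family, read 2370 and 2780 in KG03723 flies, 1596 and 1708 in rm7 flies, and 1512 and 1494 in revert flies. It was higher in KG03723 than in revert, with a log2 difference of 0.77 ± 0.12 (SE, limma adjusted p = 0.031). It was also higher in KG03723 than in rm7 (0.64 ± 0.12, SE, limma adjusted p = 0.024). The other 13 tested zinc genes did not pass for either mutant against revert, and the list medians of -0.02 for rm7 and -0.10 for KG03723 stood beside medians of 0.03 and -0.005 over all genes.

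ZnT33D read 88.5 in rm7 flies and 40.6, under the floor, in revert flies after bacteria, so its log2 ratio of 1.05 is a lower bound, and it did not pass in the fit (0.40 ± 0.36, SE, limma adjusted p = 0.692). Glutathione is the other main thiol that binds metal in cells. Gclm, which encodes a subunit of the enzyme that starts glutathione synthesis, read 386 after bacteria and 271 after PBS in rm7 flies, against 192 and 183 in revert flies. Its log2 difference of 0.79 ± 0.26 did not pass (SE, limma adjusted p = 0.171), and 0 of the 3 glutathione genes tested passed for either mutant.

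The genes nearest to each metallothionein along the arm were examined because spz lies on the same arm as all 4. The 3 nearest measured genes on each side, taken by RefSeq order after the metallothionein values had been seen, gave 16 neighbours besides the metallothioneins themselves, and 15 were tested. Of these, 0 passed as lower in rm7 and 1 passed as higher, near the shares of 3% and 2.61% over all genes. That gene, Tmlh, which lies between MtnC and MtnB, read 858 and 805 in rm7 flies and 189 and 397 in revert flies, a log2 difference of 1.60 ± 0.31 (SE, limma adjusted p = 0.03). MFS9 and Stat92E, the nearest measured genes on either side of MtnD, had log2 differences of -0.11 and -0.24 in rm7 (limma adjusted p = 0.926 and 0.313). In KG03723 0 of the 15 passed in either direction. Linkage to spz was not tested, as no distance to spz was taken and unchanged neighbours cannot decide it.

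**Figure D4:**
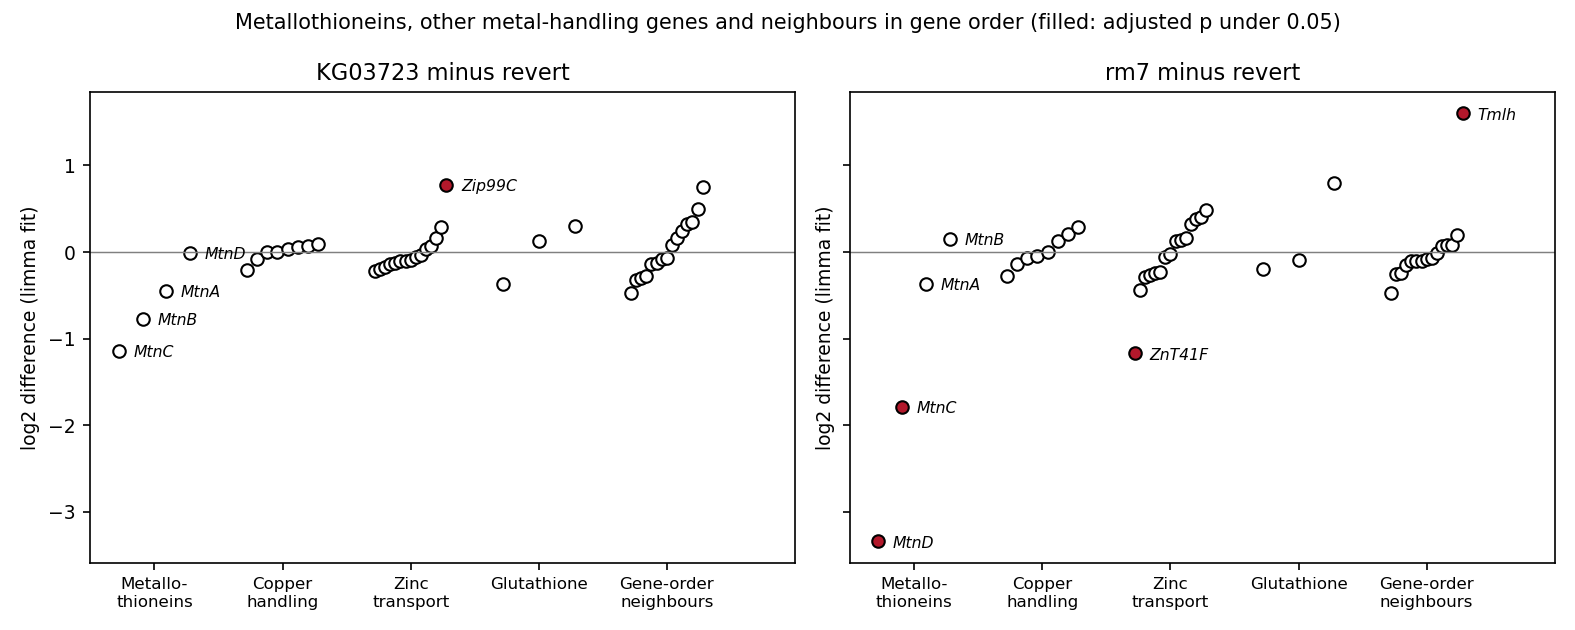
Log2 difference from revert in the limma fit (vertical axis) for KG03723 on the left and rm7 on the right; each point is 1 gene, filled where its adjusted p is under 0.05. In rm7 the metallothioneins MtnD (-3.34) and MtnC (-1.79) lie below every gene of the copper, zinc and glutathione lists and every neighbour in gene order, with ZnT41F (-1.17) next.

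For each member, the 3 genes with the most similar profile were picked by the Pearson correlation of log2 signal over the 6 arrays, among 1701 genes above the floor on all arrays and with a range of at least 1. Such values come from 6 points in 3 genotypes, so they describe these arrays and carry no p. The genes were picked for a like profile, so a pattern shared with the member follows from the choice. MtnD was closest to CG17192 (r = 0.996), lncRNA:CR42862 (r = 0.995) and CG31729 (r = 0.995). CG17192 read 117 after bacteria and 90.4 after PBS in rm7 flies, 1205 and 1196 in KG03723 flies, and 1683 and 1050 in revert flies. As with MtnD, both rm7 arrays lay below the other 4.

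MtnC was closest to CG8620 (r = 0.997), CG11878 (r = 0.984) and CG13325 (r = 0.975). CG8620 read 290 and 144 in rm7 flies, 305 and 303 in KG03723 flies, and 695 and 683 in revert flies. As with MtnC, both revert arrays were highest and the rm7 PBS array lowest. MtnA was closest to MFS1 (r = 0.969), Rgk1 (r = 0.933) and the muscle gene sls (r = 0.918), and MtnB to CG14984 (r = 0.943), CG15155 (r = 0.931) and the defensin gene Def (r = 0.930). MtnB, MtnC and MtnD were not among the 3 genes most like another member. MtnA, with a 1.76-fold range, fell short of the required range and could not be picked. Between members r ran from -0.461 (MtnB and MtnD) to 0.787 (MtnA and MtnC).

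**Figure D5:**
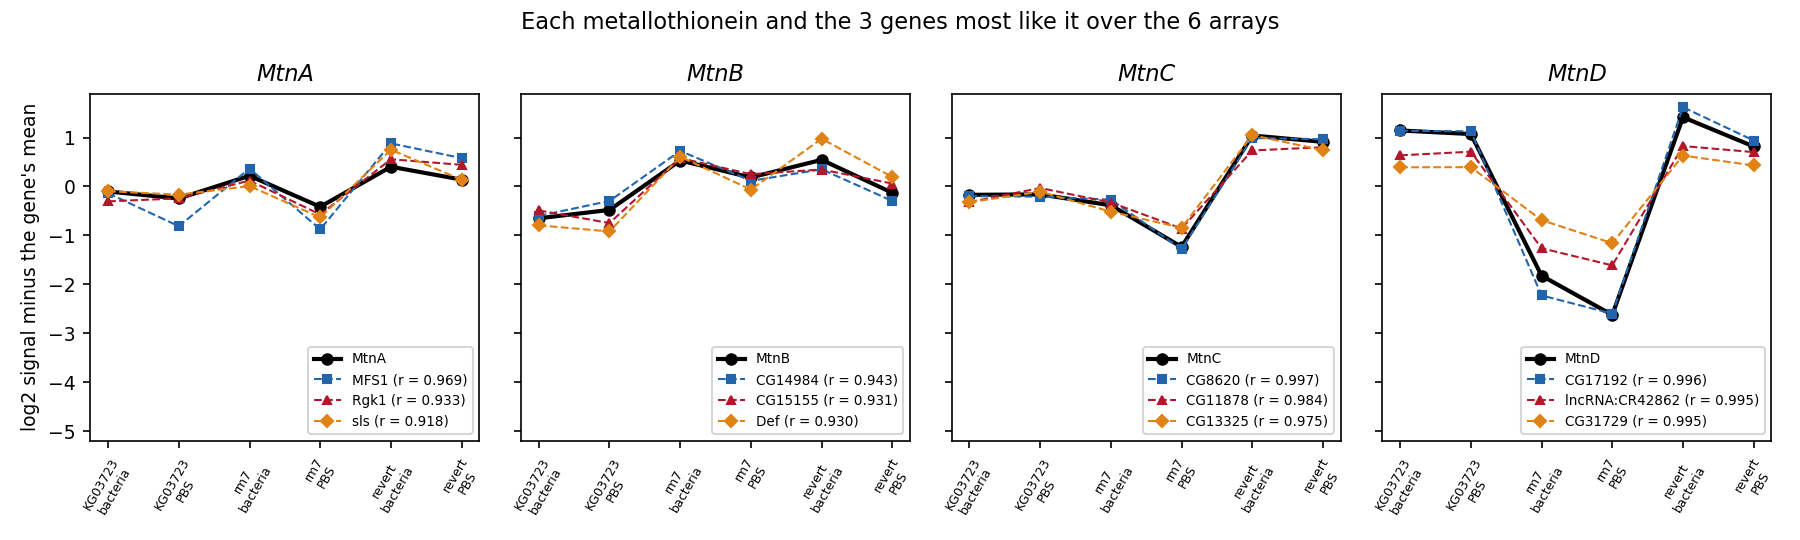
Log2 signal minus each gene's own mean over the 6 arrays (vertical axis) for each metallothionein (black) and the 3 genes most like it (coloured), with r in the legend; the lines only join the points of 1 gene. MtnD and its 3 genes drop on both rm7 arrays, and MtnC and its 3 genes are highest on both revert arrays.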

How the data were processed

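The authors deposited a linear signal intensity for every probe set on every array. The submitters' processing notes name MAS5. Its version, the annotation and any filter are not given in the sources used here. The table held 18952 probe sets, 183 of them controls. The platform annotation named 1 gene for 13647, and 13544 of these matched the RefSeq gene table by identifier. These stand for 11982 genes, and a gene was represented by its brightest probe set on average. Signals under the 40th percentile (42.7) were raised to it before the log2.

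Ratios of 2 arrays were counted over 10105 genes above the floor on at least 1 array, at a threshold of 2-fold, with no test. One limma fit (version 3.58.1, R 4.3.3) of genotype plus injection with a variance trend covered the 9540 genes that exceeded the floor on 3 or more arrays, with Benjamini-Hochberg adjustment at 0.05 over all of them. The fit was tested on simulated data with independent normal noise and additive effects, as the fit itself assumes. That run therefore says nothing about non-additive responses or about differences between arrays or strains. Precision is limited by the number of arrays.

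The members and the gene lists were chosen with earlier results of these data known. Genes were named by a rule: every member, MTF-1, Ctr1A, Ctr1B and ATP7, metal-handling genes that passed the fit or were at least 2-fold apart in any of 9 comparisons of 2 arrays, and the 3 genes most like each member. Alternatives included normalization by quantiles or by cyclic loess, a floor at the 20th or 60th percentile, a pseudocount of 50 in place of it, the mean over probe sets, no filter, no variance trend, and fits without each array or genotype. The RefSeq tables used here held no sequences, so none are shown.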

Additional observations from a re-analysis of the deposited data

Results flagged for a closer look

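In 7 cases a metallothionein gene had ratios of opposite sign under one contrast in different groups. Each rests on 4 single arrays, and the differences were not tested. For bacteria over PBS, MtnB had a log2 ratio of -0.17 in KG03723 against 0.67 in revert, a difference of -0.84, and against 0.35 in rm7, a difference of -0.52. MtnC had a log2 ratio of -0.01 in KG03723 against 0.85 in rm7, a difference of -0.86, and against 0.13 in revert, a difference of -0.14.

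For rm7 over revert, MtnB had a log2 ratio of -0.01 after bacteria and 0.31 after PBS, a difference of -0.33. For KG03723 over revert, MtnD had a log2 ratio of -0.27 after bacteria and 0.25 after PBS, a difference of -0.53. For KG03723 over rm7, MtnA had a log2 ratio of -0.32 after bacteria and 0.17 after PBS, a difference of -0.49.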

How the results depend on the processing

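The lower MtnD and MtnC in rm7 and the MtnD difference between the mutants kept their direction and passed the limma test in all 14 other settings. Their log2 differences ran from -3.57 to -3.11, -2.18 to -1.39 and 3.02 to 3.64 when each array was left out. MtnC in KG03723 minus revert passed with the floor at the 20th percentile (-1.14, limma adjusted p = 0.0494) and with the pseudocount (-1.13, limma adjusted p = 0.0477), and ran from -1.39 to -0.89 with each array left out. MtnB in KG03723 minus rm7 (-0.92) did not pass with the mean over probe sets, without the filter or without the variance trend, and ran from -1.26 to -0.58 with each array left out. MtnB in KG03723 minus revert ran from -1.11 to -0.43, and MtnC in KG03723 minus rm7 from 0.25 to 1.04. For bacteria minus PBS the ranges were 0.20 to 0.45 for MtnA, 0.09 to 0.51 for MtnB, 0.06 to 0.49 for MtnC and 0.34 to 0.70 for MtnD. Quantile normalization moved the log2 ratio of bacteria over PBS for MtnA to 0.376 in rm7 and 0.0322 in revert. The cause of these shifts was not tested. Of 216 ratios of 2 arrays recomputed under the alternatives, 214 moved by less than the SD of a difference from the limma fit. The sign changed in 1, MtnB in rm7 over revert after bacteria (0.001 with cyclic loess). In fits without a revert array the prior degrees of freedom were infinite, so their counts and p-values rest on the spread of other genes alone. Without each array, MtnD in KG03723 minus revert, MtnA in KG03723 minus rm7 and MtnB in rm7 minus revert, none of which passed, changed sign in 2, 2 and 1 fits. Counts over all genes rest on few arrays: genes lower in rm7 numbered 286, or 155 without the variance trend and 322 without the revert bacteria array, and those lower in KG03723 66, or 15 and 113 in the same settings. Genes higher in rm7 numbered 68 without the rm7 bacteria array and 308 without the revert PBS array, and those higher in KG03723 13 without the KG03723 PBS array and 188 without the revert PBS array. In KG03723 minus rm7, 120 were higher without the KG03723 PBS array and 85 lower without the rm7 bacteria array, against 492 and 419 without the revert bacteria array. For bacteria, 0 genes passed in either direction, or 21 higher and 26 lower without the revert PBS array.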
